A study of Mus musculus with 6 samples.

Results

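Neurexins, neuroligins and leucine-rich repeat transmembrane proteins (LRRTMs) are the adhesion proteins that hold the presynaptic and the postsynaptic membrane together. The mRNA of 9 of their genes, chosen by symbol, was followed among the 55357 genes counted in mouse primary neurons in which *Pla2g4e* had been knocked down. The neurexins analysed here were *Nrxn2* and *Nrxn3*, the neuroligins *Nlgn1*, *Nlgn2* and *Nlgn3*, and the LRRTMs *Lrrtm1*, *Lrrtm2*, *Lrrtm3* and *Lrrtm4*. All 9 passed the filter on low counts, which kept the 21876 genes that reached 6 reads in 1 library or more.

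The cultures were wild type, prepared from the cortex and hippocampus of C57BL/6N embryos at embryonic day 18, and received lentivirus at DIV4, DIV being the days in vitro. One group, shCtrl, carried a scrambled shRNA, and the other, shPla2g4e, carried the shRNA named sh2 against *Pla2g4e*, a phospholipase that makes precursors of endocannabinoid-like lipids. Both groups received the same amount of virus, both shRNAs came from the pLVTHM vector, and 3 libraries of poly(A) RNA per group were made from cells collected at DIV14. A group therefore rests on 1 shRNA sequence, and the labels do not say whether the 3 libraries came from separate preparations, so that the p-values measure the spread between these libraries only.

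Neurexins sit in the presynaptic membrane and reach across the cleft to bind neuroligins and LRRTMs in the postsynaptic membrane. Neuroligins recruit receptors and scaffold proteins, with neuroligin 1 found mainly at excitatory synapses, neuroligin 2 mainly at inhibitory synapses and neuroligin 3 at both. LRRTMs are postsynaptic proteins of excitatory synapses, where they are known for organizing presynaptic terminals and holding AMPA receptors. Each neurexin gene has several promoters and many splice forms, and counts per gene sum over all of them.

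The sh2 sequences are shown because an shRNA guide can also bind other mRNAs through its bases 2 to 8, the seed, chiefly in 3′ UTRs. The sh2 target lay in the coding sequence of *Pla2g4e*, in exon 11 of 20 on the minus strand of chromosome 2, 120182753 to 120182771 (GRCm38, transcript model of GENCODE vM21). Capitals mark the seed in the guide and the 7 bases that pair with it in the target.
sh2 target: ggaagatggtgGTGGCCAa
sh2 guide strand: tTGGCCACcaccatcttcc

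The seed match GTGGCCA was in an annotated 3′ UTR of 0 of the 9 genes, beside 14.6% of the 15700 tested genes with a 3′ UTR, 44.2% of the 856 downregulated genes among them and 7.7% of the 479 upregulated ones. In the coding sequence of the longest coding transcript it was in 6 of the 9 genes, beside 25.6% of 15811 genes, 39.3% of the 857 downregulated genes among them and 23.4% of the 479 upregulated ones. *Nrxn2*, *Nrxn3* and *Nlgn1* held 2 copies each, and *Nlgn2*, *Lrrtm2* and *Lrrtm4* held 1 each. None was in the coding sequence of *Nlgn3*, *Lrrtm1* or *Lrrtm3*, and a further copy was in the 5′ UTR of *Nlgn3*. The shares over all genes were not matched for the length of the sequence searched, so that 6 of 9 beside 25.6% is not shown to be an excess. A match is a description of the letters and not a site shown to be bound.

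The coding matches are shown as mRNA sequence with 11 bases on either side and the match in capitals, to be set beside the changes of the same genes given later. The match of *Lrrtm2* is not printed here. Positions are those of the 7 capitals in GRCm38, and exons are numbered along the GENCODE vM21 transcripts ENSMUST00000113462.7 (*Nrxn2*), ENSMUST00000163134.7 (*Nrxn3*), ENSMUST00000193603.5 (*Nlgn1*), ENSMUST00000056484.9 (*Nlgn2*) and ENSMUST00000147663.7 (*Lrrtm4*). In *Nrxn2* they lay in exon 2 (chromosome 19, plus strand, 6428484 to 6428490) and exon 23 (6531321 to 6531327), and in *Nrxn3* in exon 4 (chromosome 12, plus strand, 89187036 to 89187042) and exon 6 (89254779 to 89254785). In *Nlgn1* they lay in exon 3 (chromosome 3, minus strand, 26133708 to 26133714) and exon 7 (25436088 to 25436094), in *Nlgn2* in exon 6 (chromosome 11, minus strand, 69826979 to 69826985) and in *Lrrtm4* in exon 2 (chromosome 6, plus strand, 80022915 to 80022921).
*Nrxn2*, exon 2: gcgagatgcagGTGGCCAgcgacctgttc
*Nrxn2*, exon 23: accctcctcccGTGGCCAcccgatccccc
*Nrxn3*, exon 4: gagaggagaacGTGGCCAccttccgaggc
*Nrxn3*, exon 6: agtgtgagaacGTGGCCAcactggatccc
*Nlgn1*, exon 3: cccagatgcatGTGGCCAaattatgtttg
*Nlgn1*, exon 7: tagcacctgctGTGGCCAcagcagacctt
*Nlgn2*, exon 6: tcgccccggctGTGGCCAccgccaagctg
*Lrrtm4*, exon 2: tgttcctctccGTGGCCAtgattctcctg

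Between 17054717 and 23570180 reads were counted per library, and levels are given as counts per 1e6 reads (CPM) scaled by TMM, which corrects for the composition of a library. The libraries held between 252 reads (*Lrrtm4*) and 15217 reads (*Nrxn2*) of each of the 9 genes. The targeted gene was measured first. *Pla2g4e* stood at 38.0, 35.1 and 35.4 CPM in shCtrl replicates 1, 2 and 3 and at 21.8, 14.1 and 18.7 CPM in shPla2g4e replicates 1, 2 and 3. The groups did not overlap, and the shPla2g4e mean was 50.5% of the shCtrl mean (log2 fold change -0.99, SE 0.13, adjusted p = 1.24e-04). Here and throughout, adjusted p is that of edgeR's quasi-likelihood test with Benjamini-Hochberg adjustment over all 21876 genes, and a gene is called at 0.01.

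In shCtrl neurons the levels per kilobase of exon spanned from *Nlgn2* at the top to *Lrrtm4* at the bottom. *Nlgn2* stood at 94.7 ± 10.1 CPM per kb (SD, n = 3), *Nrxn2* at 47.3 ± 6.24 and *Lrrtm1* at 32.4 ± 4.59, and the libraries of these 3 genes did not overlap with those of their neighbours in the order. *Nrxn3* (14.99 ± 1.65 CPM per kb) and *Lrrtm2* (14.9 ± 0.687) came next, and their libraries overlapped. Below them *Nlgn1* (8.10 ± 0.734) overlapped with *Lrrtm3* (6.68 ± 1.07), which overlapped with *Nlgn3* (5.93 ± 0.758), whereas *Lrrtm4* (3.12 ± 0.390) lay apart from *Nlgn3*. In shPla2g4e neurons the order was the same except that *Lrrtm2*, at 20.1 ± 1.42 CPM per kb, stood above *Nrxn3*, whose libraries ranged from 12.04 to 13.86.

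**Figure D1:**
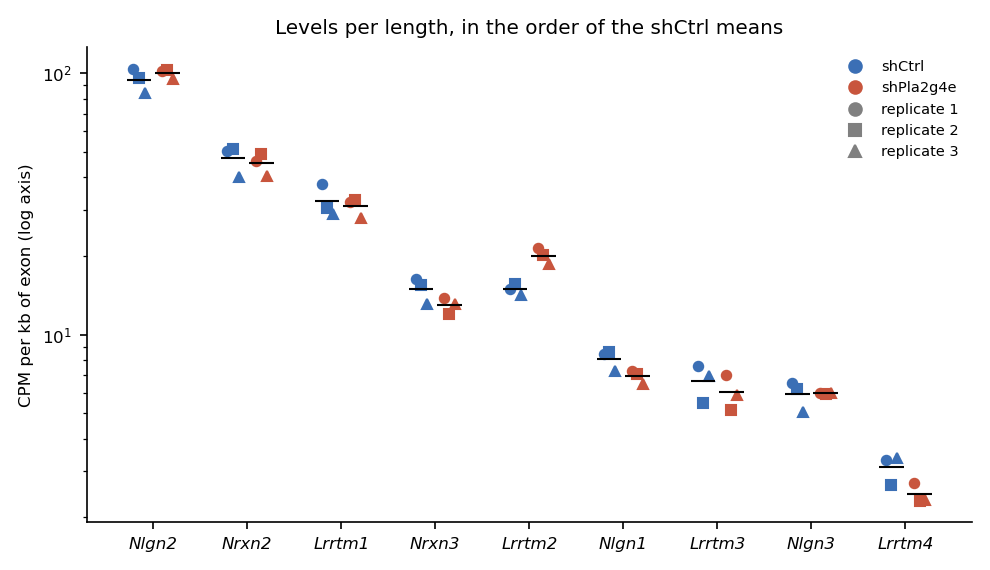
Level of each gene in CPM per kb of merged exon length on a log axis, with 1 point per library (shape, replicate number) and the group mean as a line. *Nlgn2* has the highest mean in both groups and *Lrrtm4* the lowest, and *Lrrtm2* is above *Nrxn3* in the shPla2g4e libraries.

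The place of *Nlgn3* in this order depended on the length used. The predicted gene *Gm21986* shares 41.2% of its exon bases on the same strand, and over the exon bases that overlap no other gene the level of *Nlgn3* was 10.1 ± 1.29 CPM per kb, which put it in place 6 rather than place 8. *Lrrtm4* shares 25.1% of its exon bases with *Gm4409* on the opposite strand and stayed last, at 4.16 ± 0.521 CPM per kb over the bases it has alone. Reads in shared bases may be lost or assigned to the other gene, so that the levels of *Nlgn3* and *Lrrtm4* are uncertain.

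The comparison of shPla2g4e with shCtrl asked whether the mRNA of these adhesion genes changed after the knockdown. *Lrrtm2* was upregulated, to 135% of its shCtrl mean, and it was the 1 gene of the 9 that was called, against 6.49% of all genes tested (4.00% lower and 2.48% higher). None of the 9 was called lower by edgeR, limma or DESeq2, and at an unadjusted p under 0.05 in edgeR 3 (*Nrxn3*, *Nlgn1* and *Lrrtm4*) were lower and 1 (*Lrrtm2*) higher, against 12.9% and 12.8% of all genes tested. The libraries of the groups did not overlap for 2 genes, *Lrrtm2* and *Nlgn1*, against 30.0% of all genes tested. The log2 fold changes were negative for 6 genes and positive for 3, with a median of -0.06 beside 0.03 over all genes. With scaling by library size alone, which moved the median of all genes to 0.10, the split was 4 to 5. The median size of the change, 0.15 on the log2 scale, was that of all 8911 genes at or above the level of the lowest of the 9 (also 0.15), of which 8.70% were called lower and 3.28% higher. Without shPla2g4e replicate 1 it was 0.25, beside 0.16 for those genes. Without 1 library the split of signs ran from 7 negative and 2 positive (without shCtrl replicate 3) to 4 and 5 (without shPla2g4e replicate 3).

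**Figure D2:**
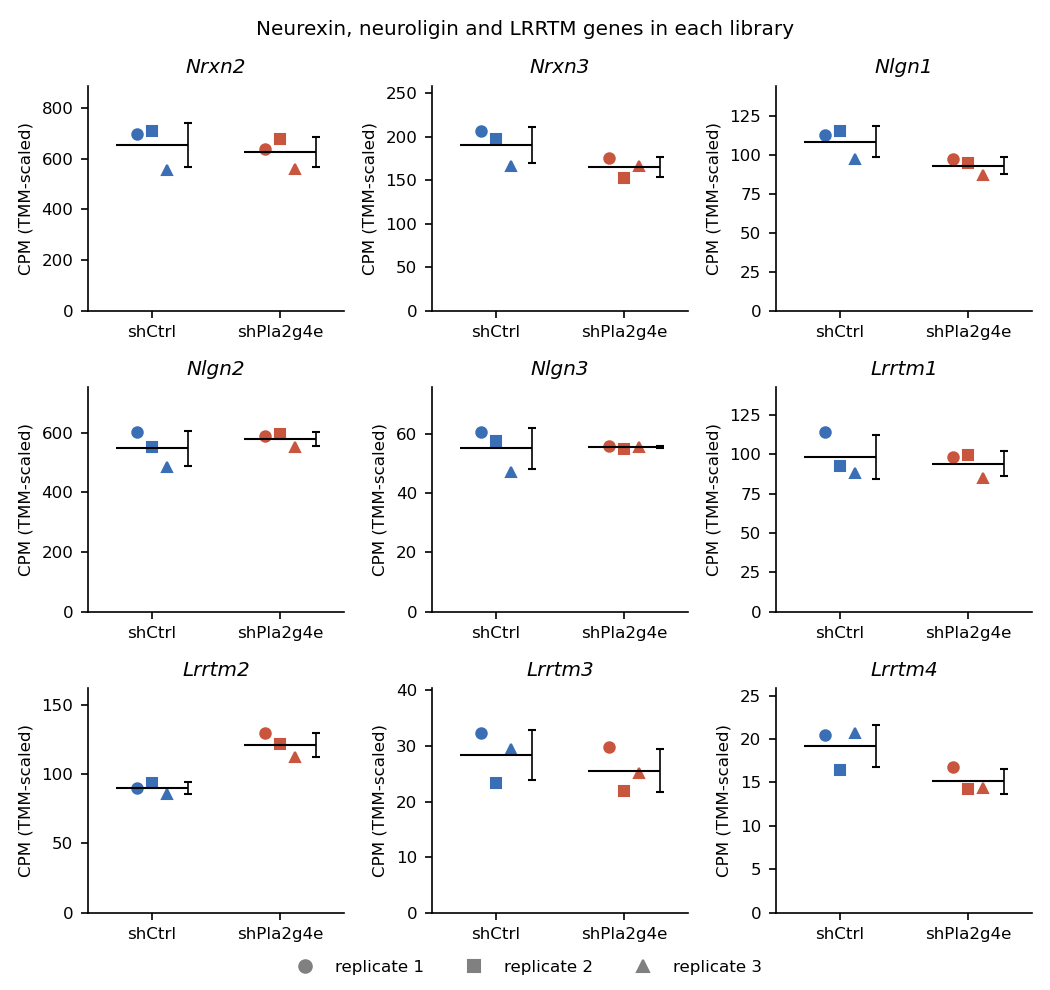
TMM-scaled CPM of each gene in the 3 shCtrl (blue) and 3 shPla2g4e (red) libraries, with 1 point per library, the mean as a line and the SD as a bar. The 3 shPla2g4e libraries of *Lrrtm2*, at 112 to 129 CPM, lie above its 3 shCtrl libraries, at 85.6 to 93.8 CPM.

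*Nrxn2* (ENSMUSG00000033768.18, chromosome 19, 6468761 to 6594199, plus strand, GRCm39 as in the deposited counts) was the more abundant of the neurexins and did not pass the test. Its levels were 696, 709 and 554 CPM in shCtrl and 636, 676 and 560 CPM in shPla2g4e. In each group replicate 3 was the lowest, and the groups overlapped. The means were 653 ± 86.2 and 624 ± 59.3 CPM (SD, n = 3), with a log2 fold change of -0.06 (95% interval -0.28 to 0.15, adjusted p = 0.758).

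*Nrxn3* (ENSMUSG00000066392.13, chromosome 12, 88689646 to 90301709, plus strand) had 207, 197 and 167 CPM in shCtrl and 176, 153 and 166 CPM in shPla2g4e. The shPla2g4e library was below the shCtrl library of the same number in 3 of 3 pairs, although shCtrl replicate 3 lay within the range of the shPla2g4e libraries. The means were 190 ± 20.9 and 165 ± 11.6 CPM, and the log2 fold change of -0.20 (SE 0.09, 95% interval -0.40 to -0.01) did not pass the test (adjusted p = 0.170).

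*Nlgn1* (ENSMUSG00000063887.14, chromosome 3, 25480379 to 26386609, minus strand), the neuroligin of excitatory synapses, had 113, 116 and 97.4 CPM in shCtrl and 97.3, 95.01 and 87.0 CPM in shPla2g4e. The groups were separated only by the small gap between shCtrl replicate 3 and shPla2g4e replicate 1. The means were 109 ± 9.85 and 93.1 ± 5.41 CPM, and the log2 fold change of -0.22 (SE 0.09, 95% interval -0.41 to -0.04) was not called (adjusted p = 0.112).

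*Nlgn2* (ENSMUSG00000051790.16, chromosome 11, 69713948 to 69728610, minus strand), the neuroligin of inhibitory synapses, had 603, 553 and 487 CPM in shCtrl and 589, 595 and 552 CPM in shPla2g4e. The shPla2g4e libraries lay inside the spread of the shCtrl libraries. The means were 548 ± 58.2 and 579 ± 23.2 CPM, with a log2 fold change of 0.08 (95% interval -0.11 to 0.27, adjusted p = 0.637).

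*Nlgn3* (ENSMUSG00000031302.17, chromosome X, 100342774 to 100369569, plus strand) had 60.5, 57.4 and 47.1 CPM in shCtrl and 55.7, 54.9 and 55.6 CPM in shPla2g4e. The means, 55.0 ± 7.02 and 55.4 ± 0.423 CPM, were close, and the log2 fold change was 0.01 (95% interval -0.19 to 0.21, adjusted p = 0.961). Since *Gm21986* covers part of its exons, these reads may not be all that *Nlgn3* gave.

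Among the LRRTMs, *Lrrtm2* (ENSMUSG00000071862.4, chromosome 18, 35342056 to 35348077, minus strand) rose. It had 90.1, 93.8 and 85.6 CPM in shCtrl and 129, 121 and 112 CPM in shPla2g4e. Every shPla2g4e library was above every shCtrl library. The means were 89.8 ± 4.13 and 121 ± 8.55 CPM, with a log2 fold change of 0.43 (SE 0.08, 95% interval 0.26 to 0.60, adjusted p = 0.00222). The call was lost without shCtrl replicate 2 (log2 fold change 0.46, adjusted p = 0.0113) and without shPla2g4e replicate 1 (0.38, adjusted p = 0.0196). With all 6 libraries it passed in every alternative scaling, filter and test tried, with log2 fold changes of 0.42 to 0.51.

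*Lrrtm1* (ENSMUSG00000060780.3, chromosome 6, 77219672 to 77234774, plus strand) had 114, 92.8 and 88.2 CPM in shCtrl and 98.0, 99.7 and 84.8 CPM in shPla2g4e. The groups overlapped, shCtrl replicate 1 being the highest of the 6 libraries. The means were 98.4 ± 13.9 and 94.2 ± 8.14 CPM, with a log2 fold change of -0.06 (95% interval -0.28 to 0.15, adjusted p = 0.769).

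*Lrrtm3* (ENSMUSG00000042846.9, chromosome 10, 63764251 to 63926056, minus strand) had 32.3, 23.4 and 29.5 CPM in shCtrl and 29.7, 21.9 and 25.1 CPM in shPla2g4e. Replicate 2 was the lowest library of both groups. The means were 28.4 ± 4.55 and 25.6 ± 3.94 CPM, with a log2 fold change of -0.15 (95% interval -0.43 to 0.13, adjusted p = 0.540). The shPla2g4e library was the lower in 3 of 3 pairs, and without 1 library the log2 fold change ranged from -0.27 to -0.05.

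*Lrrtm4* (ENSMUSG00000052581.14, chromosome 6, 79995860 to 80787124, plus strand), which is known to bind heparan sulfate proteoglycans as well, had 20.4, 16.4 and 20.7 CPM in shCtrl and 16.7, 14.2 and 14.4 CPM in shPla2g4e. The groups overlapped through shCtrl replicate 2, and the shPla2g4e library was the lower in 3 of 3 pairs. The means were 19.2 ± 2.40 and 15.1 ± 1.39 CPM, and the log2 fold change of -0.34 (SE 0.13, 95% interval -0.61 to -0.07) was the most negative of the 9 but was not called (adjusted p = 0.0975).

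**Figure D3:**
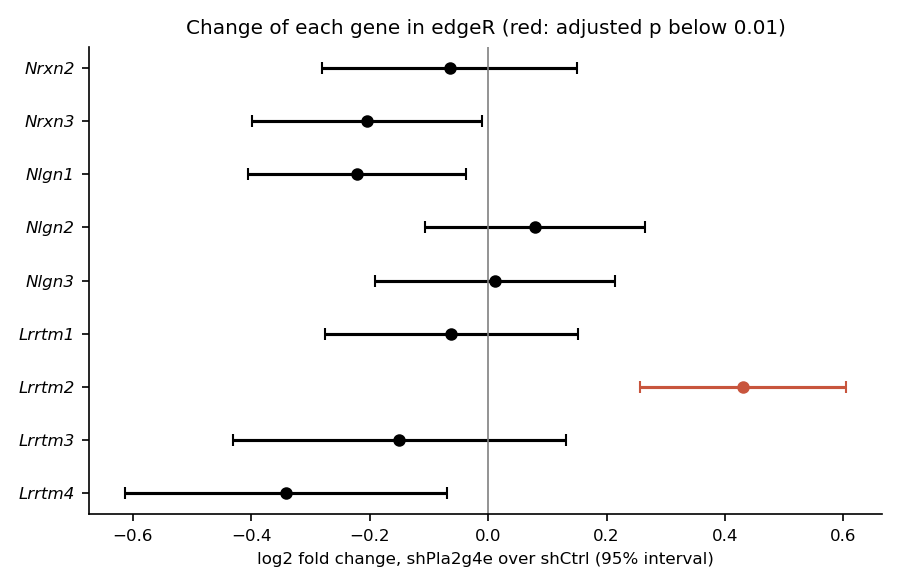
Log2 fold change of shPla2g4e over shCtrl for each gene from edgeR, with its 95% interval. The interval of *Lrrtm2*, 0.26 to 0.60, lies above 0, and those of *Nrxn3*, *Nlgn1* and *Lrrtm4* lie below 0 without passing the adjusted threshold.

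Set beside the coding matches of the sh2 seed, the genes with 2 copies had log2 fold changes of -0.06 (*Nrxn2*), -0.20 (*Nrxn3*) and -0.22 (*Nlgn1*), and those with 1 copy had 0.08 (*Nlgn2*), 0.43 (*Lrrtm2*) and -0.34 (*Lrrtm4*). The genes without a copy had 0.01 (*Nlgn3*), -0.06 (*Lrrtm1*) and -0.15 (*Lrrtm3*). The values of genes with and without a copy overlapped.

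*Lrrtm1*, *Lrrtm2* and *Lrrtm3* each lie within the span of an alpha-catenin gene on the opposite strand (*Ctnna2*, *Ctnna1* and *Ctnna3*), and reads were counted without a strand option. The exons of *Ctnna1* cover 1.58% of the exon bases of *Lrrtm2*. *Ctnna1*, which links cadherins to actin, had a mean of 84.1 ± 8.34 CPM in shCtrl and 69.3 ± 10.99 CPM in shPla2g4e, a log2 fold change of -0.28 that was not called (adjusted p = 0.103). In the fit with the replicate number as a block *Ctnna1* was called (adjusted p = 0.00181). *Ctnna2* (log2 fold change -0.12) and *Ctnna3* (0.33, at 0.252 to 1.21 CPM in the shCtrl libraries) were not called.

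Ratios of reads between genes of a family in the same library do not depend on how libraries are scaled. The log2 ratio of *Lrrtm2* to *Lrrtm4* was 2.14, 2.52 and 2.05 in shCtrl and 2.95, 3.09 and 2.96 in shPla2g4e, a difference of 0.77 between the group means. All 3 shPla2g4e values were above all 3 shCtrl values. The log2 ratio of *Nlgn2* to *Nlgn1* was 2.41, 2.26 and 2.32 in shCtrl and 2.60, 2.65 and 2.67 in shPla2g4e, a difference of 0.30, also without overlap.

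The ratio of *Nlgn3* to *Nlgn1* (difference 0.24) and that of *Lrrtm1* to *Lrrtm4* (0.28) did not overlap between groups either, whereas those of *Lrrtm3* to *Lrrtm4* (0.19) and *Nrxn3* to *Nrxn2* (-0.14) did. For the 4 ratios without overlap the two-sided exact permutation test gave p = 0.1, the smallest that 3 against 3 libraries can give, and 0.15 after adjustment over the 6 ratios. Between libraries of the same number, each of the 6 ratios moved in 1 direction in 3 of 3 pairs. An exact sign-flip test over the pairs, added after the values were seen, gave p = 0.25 for each, the smallest that 3 pairs can give. All ratios but *Nrxn3* to *Nrxn2* have *Nlgn1* or *Lrrtm4* as denominator, and both genes were lower in 3 of 3 pairs. The 6 ratios are thus not separate observations, and the share of all genes that moved in 1 direction in 3 of 3 pairs was not counted. Without shCtrl replicate 3 the difference for *Lrrtm1* to *Lrrtm4* was 0.15, and for *Nrxn3* to *Nrxn2* it ranged from -0.03 without shPla2g4e replicate 2 to -0.22 without shPla2g4e replicate 3. Of 19031 genes with reads in every library, 30.7% also had a ratio to *Nlgn1* that was higher in every shPla2g4e library, and 34.0% a ratio to *Lrrtm4*. By level per kb, *Lrrtm2* made up 26.2 ± 2.57% of the summed LRRTMs in shCtrl and 33.7 ± 0.358% in shPla2g4e, and *Lrrtm1* 56.6 ± 2.52% and 52.1 ± 1.97%. *Nlgn2* made up 87.1 ± 0.441% of the 3 neuroligins in shCtrl and 88.6 ± 0.184% in shPla2g4e, and *Nlgn1* 7.46 ± 0.367% and 6.14 ± 0.149%. These shares use the merged exon length. Over exon bases free of other genes, *Nlgn3* stood at 10.1 rather than 5.93 CPM per kb in shCtrl and *Lrrtm4* at 4.16 rather than 3.12. The shares are therefore less certain than their SDs.

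**Figure D4:**
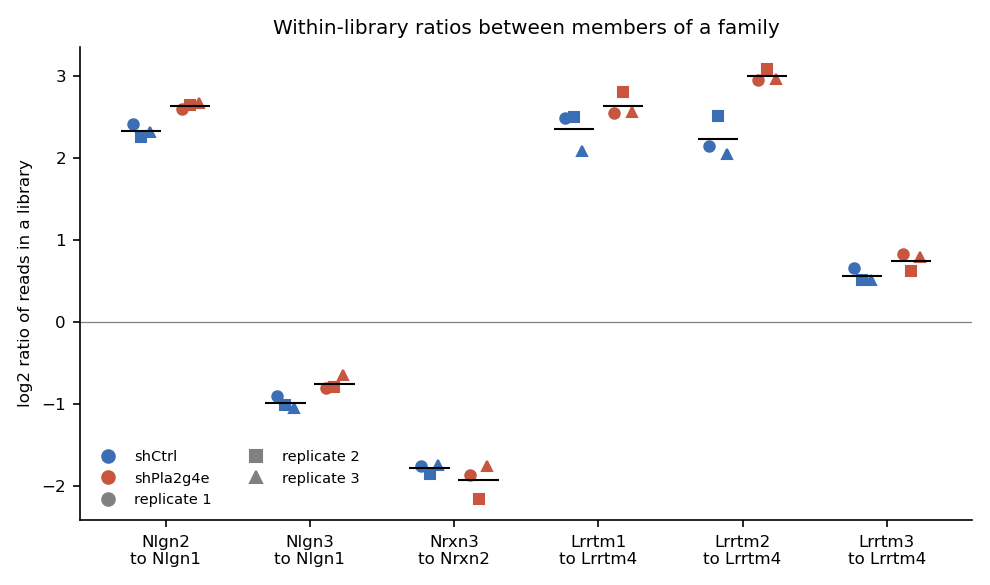
Within-library log2 ratio of reads for 6 pairs of genes, with 1 point per library (blue, shCtrl and red, shPla2g4e) and the group mean as a line. The *Lrrtm2* to *Lrrtm4* ratio has a group difference of 0.77, and the groups overlap for *Nrxn3* to *Nrxn2* and *Lrrtm3* to *Lrrtm4*.

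The other genes of trans-synaptic adhesion were taken as 7 lists with 90 genes, all of which were tested. Of these 14 were called lower and 0 higher, and the median log2 fold change was -0.13. The log2 fold change was negative for 60 of the 90, beside 46.5% of all genes tested and 56.9% of those at the level of the 9 or above. The 14 amount to 15.6% of the lists, beside 4.00% of all genes tested and 8.70% of those at the level of the 9 or above. At an unadjusted p under 0.05 edgeR had 31 lower and 6 higher, against the same 12.9% and 12.8%. Limma called 14 lower and 0 higher, against 4.23% and 2.30% of all genes, and DESeq2 16 and 0, against 7.42% and 4.20% of the 16362 genes to which it gave an adjusted p. With the replicate block 27 were called lower and 5 higher, against 9.02% and 6.50% of all genes tested. With scaling by library size alone 9 were called lower and 2 higher. The 14 became 5 without shCtrl replicate 1, 6 without shCtrl replicate 2, 7 without shPla2g4e replicate 2 and 8 without shPla2g4e replicate 1, and 2 genes were called higher without shPla2g4e replicate 3.

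Of the 19 genes listed as neurexin ligands other than neuroligins and LRRTMs, 5 were called lower. They include *Gpc4*, which is known as a ligand of *Lrrtm4*. *Clstn1* and *Clstn2* encode calsyntenins, which belong to the cadherin superfamily. The other calsyntenin, *Clstn3*, was not called (log2 fold change 0.11, adjusted p = 0.529). *Clstn1* had a mean of 983 ± 126 CPM in shCtrl and 614 ± 21.9 CPM in shPla2g4e (log2 fold change -0.68, SE 0.09, adjusted p = 1.61e-04). *Clstn2* fell by a like amount, from 179 ± 30.9 to 111 ± 16.5 CPM (-0.68, adjusted p = 0.00151). Without 1 library in turn, adjusted p rose as far as 0.0160 for *Clstn2*, where its call was lost, and 0.00294 for *Clstn1*. *Gpc4*, a heparan sulfate proteoglycan and a known presynaptic ligand of *Lrrtm4*, went from 44.1 ± 1.45 to 27.9 ± 4.21 CPM (-0.66, adjusted p = 7.00e-04). *Nxph1* and *Nxph3*, secreted neurexophilins that bind alpha-neurexins, were the other called genes.

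The 5 genes called higher in the fit with the block were named after their values were seen. They were *Cbln1* (log2 fold change without the block 0.64), *Cbln4* (0.77), *Nxph4* (0.57), *C1ql3* (0.26) and *Mdga1* (0.34), the last of which encodes a protein that binds neuroligins and blocks their contact with neurexins. Without the block their adjusted p ranged from 0.0191 (*Cbln1*) to 0.183 (*C1ql3*). Of the other cerebellin, C1q-like and neurexophilin genes listed, *Cbln2* (-0.42), *C1ql2* (0.04) and *Nxph2* (0.11) were not called with or without the block, and *Nxph1* (-0.54) and *Nxph3* (-0.58) were among the genes called lower.

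Of the other adhesion organizers, 7 of 35 were called lower (13 with the replicate block). Negative log2 fold changes were counted for 28 of these 35 and for 11 of the 19 genes listed as neurexin ligands. They were also counted for 6 of the 7 intracellular neurexin partners, 7 of the 12 neuroligin partners and anchors and 5 of the 8 splicing regulators. Of the 6 proteases 1 was negative (median 0.19), and of the 3 alpha-catenins 2 were. *Lrrc4*, a postsynaptic partner of netrin-G2, had a mean of 91.5 ± 6.52 CPM in shCtrl and 59.7 ± 2.08 CPM in shPla2g4e (-0.62 on the log2 scale, adjusted p = 1.29e-04). *Elfn1*, a postsynaptic protein that recruits metabotropic glutamate receptors across the cleft, went from 32.9 ± 3.64 to 19.3 ± 1.68 CPM (-0.77, adjusted p = 2.60e-04). *Ntng1*, which encodes netrin-G1, went from 9.26 ± 0.870 to 4.74 ± 1.01 CPM (-0.97, adjusted p = 0.00226). In each of these 3 genes every shPla2g4e library was below every shCtrl library. Without 1 library in turn, adjusted p rose as far as 0.0114 for *Ntng1*, where its call was lost, 0.00196 for *Lrrc4* and 0.00184 for *Elfn1*.

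Among the other partners, 0 of 7 intracellular neurexin partners and 0 of 12 neuroligin partners and postsynaptic anchors were called by edgeR, with 2 and 4 genes at an unadjusted p under 0.05. DESeq2 called 1 of the neurexin partners lower and none of the neuroligin partners, and limma called none of either. With the replicate block 2 of the 7 were called lower, *Apba1* (adjusted p = 2.31e-04) and *Apba2* (0.00392), and of the 12 *Mdga2* (0.00198) and *Dlg4* (0.00928) were called lower and *Mdga1* (9.42e-05) higher, all named after their values were seen. Of 8 RNA-binding proteins known to regulate neurexin splicing, *Rbfox3* and *Khdrbs1* were lower. With the replicate block *Nova2*, also named after its values were seen, was called lower as well (adjusted p = 3.60e-05, beside 0.0562 without the block). The mean of *Rbfox3* was 186 ± 18.4 CPM in shCtrl and 140 ± 6.20 CPM in shPla2g4e (-0.41 on the log2 scale, adjusted p = 0.00477), and that of *Khdrbs1* was 137 ± 8.37 and 108 ± 3.97 CPM (-0.34, adjusted p = 0.00919). Without 1 library in turn, adjusted p rose as far as 0.0271 for *Rbfox3* and 0.0740 for *Khdrbs1*, so that either call could be lost. In the alternative fits with all 6 libraries it rose as far as 0.0243 for *Khdrbs1*. *Rbfox3* is also a marker of mature neurons. None of 6 proteases known to shed neuroligins or neurexins was called by edgeR, limma or DESeq2, and 0 were at an unadjusted p under 0.05. Of the 14 genes called lower, 5 (*Gpc4*, *Nxph3*, *Lrrc4*, *Ntng1* and *Rbfox3*) hold the sh2 seed match in a 3′ UTR, beside 16 of the 90.

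**Figure D5:**
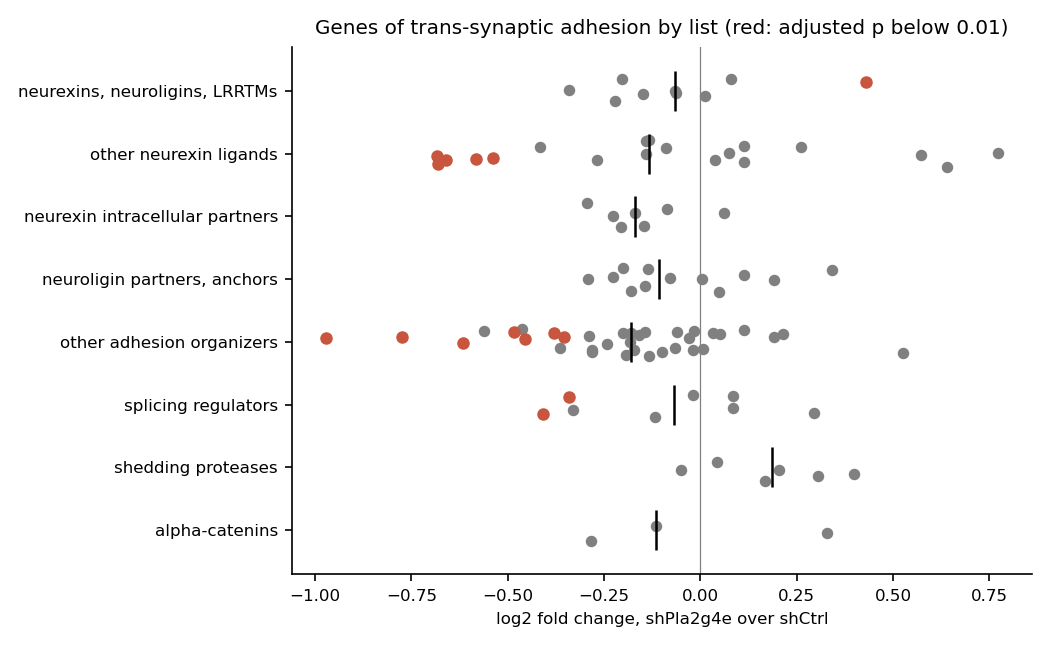
Log2 fold change of shPla2g4e over shCtrl for the 9 genes and for the 7 lists of partner genes, with 1 point per gene, genes called at an adjusted p of 0.01 in red and the median of each list as a line (vertical position within a list is arbitrary). The red points are the 14 partner genes called lower and *Lrrtm2*, which is higher.

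Cell type markers moved between the groups as well. The summed level of 8 pan-neuronal markers was 4926 to 5304 CPM in shCtrl and 4426 to 4878 CPM in shPla2g4e, with *Map2* and *Rbfox3* lower and *Nefl* higher. Neurons were thus detected in every library, as labelled. The 6 glutamatergic markers summed to 1004 to 1299 CPM in shCtrl and 669 to 738 CPM in shPla2g4e, and 3 of them had a negative and 3 a positive log2 fold change, with *Slc17a7* and *Neurod6* called lower and *Slc17a6* higher. *Slc17a7* ranged from 648 to 842 CPM in shCtrl and from 289.8 to 312 CPM in shPla2g4e. The other 5 markers, a sum taken after the values were seen, came to 356 to 457 CPM and 372 to 437 CPM, which overlapped. The 7 GABAergic markers summed to 815 to 889 CPM and 778 to 866 CPM, with 2 called lower and 2 higher.

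The cultures also held glia. The 8 astrocyte markers summed to 2825 to 3628 CPM in shCtrl and 1898 to 3080 CPM in shPla2g4e, with 3 of them (*Slc1a2*, *Gja1* and *Aqp4*) called lower. The log2 fold change was negative for 6 and positive for 2, *S100b* (1.11, adjusted p = 0.0211) and *Aldh1l1* (0.19). The 8 oligodendrocyte lineage markers summed to 516 to 585 CPM and 536 to 640 CPM, the 6 microglial markers to 3.07 to 7.72 CPM and 2.59 to 4.23 CPM, and the 6 mural and endothelial markers to 20.7 to 27.5 CPM and 20.7 to 29.6 CPM, with *Cldn5* at 0. In these 3 lists edgeR, limma and DESeq2 called no gene, and 1, 3 and 1 genes were at an unadjusted p under 0.05. The 4 markers of dividing cells summed to 23.6 to 42.7 CPM and 11.5 to 21.8 CPM, with *Top2a* called lower. In such bulk RNA fewer cells of a type and less RNA per cell cannot be told apart, and the part of these shifts in the values of the adhesion genes was not tested.

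The genes whose pattern over the 6 libraries was most like that of *Lrrtm2* were *Rasgrp1*, *Nfil3* and *Ttc39c*. Likeness was the root-mean-square distance between log2 CPM values centred on each gene's mean, searched over 10957 genes, and it was 0.0252, 0.0305 and 0.0330 for these genes. *Rasgrp1*, an activator of Ras, ranged from 115 to 129 CPM in shCtrl and from 152 to 175 CPM in shPla2g4e. Its log2 fold change was 0.44, beside 0.46 for *Nfil3*, a transcription factor, and 0.47 for *Ttc39c*.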

How the data were processed

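RNA-seq was run on 6 libraries made with the TruSeq Stranded mRNA kit. The authors checked reads with FastQC 0.11.8, aligned them with STAR 2.7.0d, counted reads on exons with featureCounts 1.6.0 and deposited raw counts, 1 file per library. The methods name mm10 and GENCODE M18, whereas the file headers name GENCODE vM28, and the labels GRCm39. The counting command held no strand and no read-pair option.

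Counts were tested with edgeR 4.0.16 (R 4.3.3; TMM, glmQLFit, glmQLFTest) on genes that reached 6 reads in 1 library or more, with Benjamini-Hochberg adjustment and a threshold of 0.01. SEs were taken from the F statistic. Symbols, transcripts and UTRs came from GENCODE vM21 (GRCm38), matched by identifier for 52081 of 55357 genes. The 3276 others held 0.286% to 0.387% of reads. Member levels per kb used the merged exon length in the files. Alternatives were limma 3.58.1 after voom, DESeq2 1.42.0, other scalings, filters and thresholds, a replicate block, and leaving out each library. Scripts were tested on simulated data. Ratios were tested by exact permutation in scipy 1.17.1.

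Deviations of libraries with the same replicate number in the labels correlated at 0.392, 0.189 and 0.462 over 10958 genes. The numbers were therefore taken as pairs in the fit with the replicate block and in the comparisons by pair. The main fit held no replicate term, and the adjusted p given without mention of the block come from it. No pair of libraries differed by less than sampling noise (chi-square per gene at least 6.03). The genes and lists were chosen with earlier results of these data known. The text names the 9 genes, *Pla2g4e*, up to 3 called genes per partner list with the smallest p, and the 3 patterns nearest to the gene of the 9 with the smallest p. *Nxph1*, *Nxph3*, *Ctnna1*, *Ctnna2*, *Ctnna3*, the marker genes those called only with the block and *Cbln2*, *C1ql2*, *Nxph2* and *Clstn3* were named after their values were seen.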

Additional observations from a re-analysis of the deposited data

How the results depend on the processing

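*Lrrtm2* was called in every fit with all 6 libraries and no member of the 9 was called lower in any fit. Without 1 library in turn, the number of the 9 called higher ranged from 0 to 1. *Lrrtm2* lost its call without shCtrl replicate 2 (0.46) and without shPla2g4e replicate 1 (0.38). Changes near 0 turned direction. *Nrxn2* was at 0.0122 with scaling by library size alone and ranged from -0.17 to 0.0069 without 1 library (the highest without shPla2g4e replicate 3). *Nlgn3* ranged from -0.0902 (without shCtrl replicate 3) to 0.086. *Lrrtm1* was at 0.0151 by library size alone and ranged from -0.14 to 0.0588 (without shCtrl replicate 1), with 0.0062 without shPla2g4e replicate 3. *Lrrtm3* kept its direction between -0.27 (without shCtrl replicate 2 or shPla2g4e replicate 1) and -0.05 (without shCtrl replicate 1 or shPla2g4e replicate 2), as did *Nlgn2* between 9.07e-04 (without shCtrl replicate 3) and 0.15 (without shCtrl replicate 1). The cause was not tested.

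Partner genes called lower, 14 as reported, were 9 with library size alone, 27 with the replicate block and 5 to 14 without 1 library. Partner genes called higher, 0 as reported, were 2 with library size alone, 4 with no filter on low counts, 5 with the replicate block, 3 at a threshold of 0.05 and 0 to 2 without 1 library, the 2 being without shPla2g4e replicate 3. All genes called, 1419 as reported, were 2349 with no filter, 3395 with the replicate block, 2813 at a threshold of 0.05 and 695 to 1613 without 1 library. The pairing by replicate block changed no call among the 9 at 0.01. With the block, edgeR's adjusted p was 0.0116 for *Nlgn1*, 0.0186 for *Nrxn3* and 0.0195 for *Lrrtm4*, all lower and under 0.05. Without the block these were 0.112, 0.170 and 0.0975. *Lrrtm2* was at 7.41e-07 with the block, and the other genes ranged from 0.307 (*Lrrtm3*) to 0.93 (*Nlgn3*).

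Over exon bases free of other genes, an alternative chosen after seeing the data, *Nlgn1* stood at 8.91 CPM per kb. Levels per length of the longest coding transcript were not run. *Lrrtm4* had the fewest reads of the 9, at 252 to 466 per library, and 3 libraries per group leave the intervals given in the text.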
